A study of Mus musculus with 10 samples.

Results

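The cytosolic heat shock response genes examined here were 10 genes chosen by name: the transcription factor gene Hsf1 and the genes of 9 chaperones and co-chaperones of the cytosol, namely Hspa1a, Hspa1b, Hspa8, Hsp90aa1, Hsp90ab1, Hsph1, Dnajb1, Hspb1 and Bag3. All 10 were among the 43629 genes of the count table and all 10 were among the 14143 genes that passed the filter on low counts. The rule names the genes and uses no measured value, although the genes were chosen with earlier results of these data known. RNA was sequenced from livers of 5 NCACS mice (numbered 11 to 15) and 5 CACS mice (numbered 16 to 20), where CACS stands for cancer anorexia-cachexia syndrome and NCACS for its absence. All 10 were male KL mice, a genetically engineered lung cancer model activated by Cre recombinase and backcrossed to FVB. Lung tumours had been induced in both groups, in adult animals, by intranasal adenovirus carrying Cre under the CMV promoter, so a liver from a mouse without a tumour was not part of the comparison. The groups were defined by loss of body weight from its peak, and the labels give a weight change of -8 ± 4.64% (SD, n = 5) for NCACS and of -30.6 ± 1.82% (SD, n = 5) for CACS mice.

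Cells answer misfolded protein by raising a set of cytosolic chaperones through the transcription factor HSF1, which is held inactive by chaperones and is released, assembled into trimers and bound to heat shock elements when unfolded protein accumulates. HSP70 proteins (Hspa genes) bind exposed hydrophobic stretches in a cycle driven by ATP, J-domain proteins such as DNAJB1 deliver clients to them, and HSP110 (Hsph1) and BAG proteins release the nucleotide. HSP90 proteins fold a narrower set of clients, among them steroid receptors and kinases, and in liver the glucocorticoid receptor is a well known one. HSF1 is controlled mainly at the level of its protein, so the level of Hsf1 mRNA is not a measure of its activity.

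The promoters of the inducible genes are shown first because heat shock elements define this response. They are the 250 bases before the transcription start in RefSeq, on build GRCm38.p6, and such a promoter was found for 6 of the 10 genes (Hspa1a, Hspa1b, Hsph1, Dnajb1, Hspb1 and Bag3). Heat shock elements are built from inverted GAA units, and the motif searched on both strands was GAANNTTC or TTCNNGAA, a pair of facing units. It was present in 4 of the 6 promoters, and in 12.8% of 32851 RefSeq promoters of the same length. A longer form with 3 units, GAANNTTCNNGAA or TTCNNGAANNTTC, which overlaps the pair, was in 0 of the 6 and in 0.466% of all promoters. The 3 sequences below are on the reverse strand of chr17:34972157-34972406 for Hspa1a, the reverse strand of chr17:34959239-34959488 for Hspa1b and the forward strand of chr5:135887669-135887918 for Hspb1, each read 5′ to 3′ with matches to the pair motif in capitals.
Hspa1a: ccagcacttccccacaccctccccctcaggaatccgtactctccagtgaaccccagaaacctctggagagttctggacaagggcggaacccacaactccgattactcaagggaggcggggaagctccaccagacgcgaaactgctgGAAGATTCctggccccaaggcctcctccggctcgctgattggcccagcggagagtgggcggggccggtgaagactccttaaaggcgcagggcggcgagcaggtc
Hspa1b: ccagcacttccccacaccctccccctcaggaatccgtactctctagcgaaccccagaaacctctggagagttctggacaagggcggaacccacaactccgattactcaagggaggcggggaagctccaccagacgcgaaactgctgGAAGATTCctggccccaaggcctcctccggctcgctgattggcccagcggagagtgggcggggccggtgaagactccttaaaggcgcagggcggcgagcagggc
Hspb1: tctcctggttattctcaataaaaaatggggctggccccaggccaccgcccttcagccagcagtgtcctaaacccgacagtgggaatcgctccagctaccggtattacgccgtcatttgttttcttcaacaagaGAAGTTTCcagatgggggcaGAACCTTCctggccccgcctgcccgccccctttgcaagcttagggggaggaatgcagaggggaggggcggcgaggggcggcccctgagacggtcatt
The Hspa1a and Hspa1b promoters were identical at 247 of 250 positions, and both held the match GAAGATTC at bases -104 to -97 from the start. Hspb1 held GAAGTTTC at -117 to -110 and GAACCTTC at -97 to -90. Hsph1, whose promoter is not printed, held TTCTCGAA at -33 to -26. No match was found in these windows of Dnajb1 and Bag3, which says only that these letters were absent there. The windows of Hspa1a and Hspa1b are near copies, so their matches are not separate observations. By the GENCODE M21 coordinates used here Hsph1 starts further upstream, so its match falls inside that gene. A match describes the sequence and is not evidence of binding in these livers.

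The likeness of Hspa1a and Hspa1b extends into the genes, and this bears on their counts. The reads were 100 bases long. Of the 100-base stretches of the Hspa1a transcript, 56.5% also occurred in another annotated transcript, and for Hspa1b the share was 49.9%, mostly through the 1350 stretches that the pair has in common. Reads from such stretches cannot be given to 1 gene, and how they were counted is not given in the sources used here, so the separate values of Hspa1a and Hspa1b are uncertain. An exon of the antisense gene Gm20481 also overlapped Hspa1a by 564 bases. On the same strand as Hspa8, the small nucleolar RNA genes Snord14c, Snord14d and Snord14e overlapped its exons by 86, 86 and 90 bases. The effect of these overlaps on the counts was not tested. Hspa8 shared 63.4% of its stretches with 9 pseudogenes or related loci, Hsp90aa1 47.6% with 3 and Hspb1 42.7% with 2, while Hsf1, Hsp90ab1, Hsph1, Dnajb1 and Bag3 shared 0. The related loci with a row in the table held few counts themselves, at most 0.167% of the Hspa8 count, 0.594% of the Hsp90aa1 count and 0.309% of the Hspb1 count of the same liver. For Hspa1a and Hspa1b, beyond each other, the related loci held 3 to 18 counts in all, up to 200% of the Hspa1a and 14.3% of the Hspa1b count. The effect of shared sequence on the levels of these 5 genes, and on their comparison between groups, was not tested.

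Total counts ranged from 31945328 to 38306888 in NCACS and from 31459179 to 40746178 in CACS livers. The 10 genes together took 0.109 to 0.139% of the counts of an NCACS liver and 0.124 to 0.157% of those of a CACS liver. Most of this came from a pair of genes that unstressed cells also use, Hsp90ab1 and Hspa8, which held between 82.0 and 88.0% of the counts of the 10 genes.

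**Figure D1:**
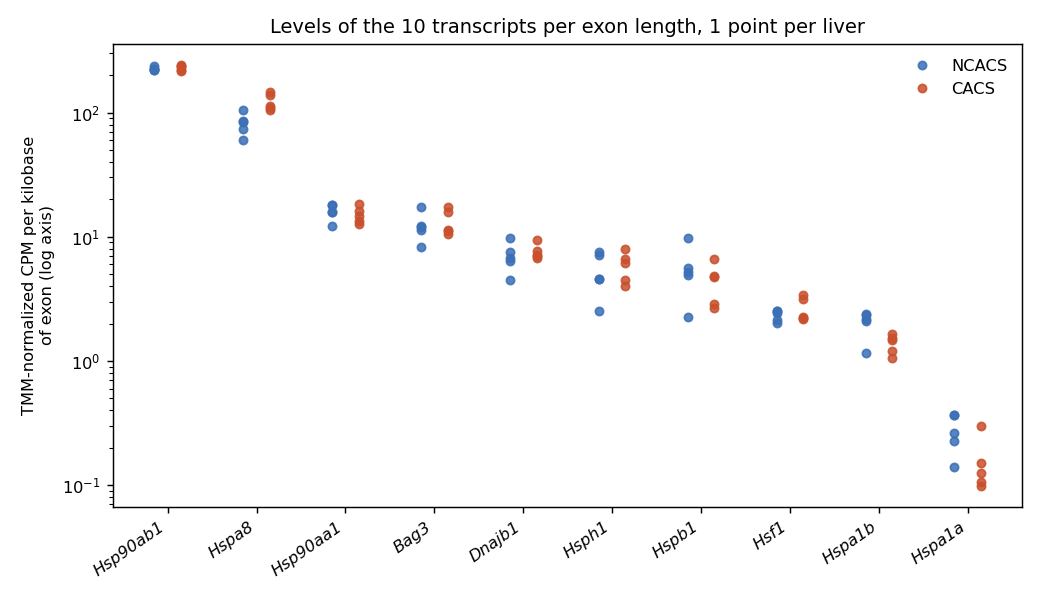
Level of each of the 10 transcripts per kilobase of exon (RPKM, from TMM-scaled counts, on a log axis), with 1 point per liver, NCACS in blue and CACS in orange. Hsp90ab1 and Hspa8 stand above the other 8 genes in every liver, and Hspa1a is the lowest in every liver.

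Levels were read on a scale of library size and exon length (RPKM, that is CPM per kilobase of exon, where CPM are counts relative to the TMM-scaled library total). Exon length was the union of all annotated exons of a gene, which can exceed the length of a single transcript. On this scale the constitutive HSP90 gene Hsp90ab1 was the most abundant, at 224 in NCACS and 229 in CACS livers as means. Hspa8 followed with mean RPKM of 81.5 and 122, and its range over all 10 livers, 60.2 to 146, lay below that of Hsp90ab1, 216 to 241. This separation depends on the length used. The exon union of Hspa8 had 4301 bases and its transcript 2394, against 2999 and 2520 for Hsp90ab1. Hspa8 also shares sequence with other loci, as given above, and Hsp90ab1 does not. Hsp90aa1, the stress-inducible HSP90 gene, had 15.9 and 14.99 RPKM, so that its level was far below that of its constitutive relative in every liver. Then came Bag3 with 12.2 and 13.2, Dnajb1 with 6.97 and 7.60, Hsph1 with 5.28 and 5.86, Hspb1 with 5.53 and 4.37, and Hsf1 with 2.34 and 2.65 RPKM. The inducible HSP70 genes were at the bottom, Hspa1b with 2.04 and 1.38 and Hspa1a with 0.272 and 0.156 RPKM. On this scale the order was the same in all 10 livers between Hsp90ab1, Hspa8 and Hsp90aa1, between Bag3, Dnajb1 and Hsph1, and between Hspa1b and Hspa1a. The order of neighbours depends on the length used. For Hsph1 the exon union had 7266 bases and the transcript searched for shared sequence 3802, and for Dnajb1 3204 and 2996. Levels per transcript length were not computed. Hsp90aa1 exceeded Bag3 in 9 of 10 livers. Hsph1 exceeded Hspb1 in 6 of 10 livers, so that these neighbours did not differ beyond their spread. Hsf1 exceeded Hspa1b in 8 of 10 livers, and Hspb1 exceeded Hsf1 in 9 of 10.

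The comparison of CACS with NCACS livers asks whether the heat shock genes differed with cachexia. None of the 10 had a Benjamini-Hochberg adjusted p below 0.05 in edgeR's quasi-likelihood test over all genes tested (0 of 10), against 3.80% of all genes. At an unadjusted p below 0.05 there were 2 of 10, Hspa8 with a higher and Hspa1b with a lower level in CACS livers, against 21.6% of all genes. DESeq2 called 1 of the 10, Hspa8, against 10% of all genes with an adjusted p. Limma-voom called 0 of the 10, against 509 of all 14143 genes. The groups did not overlap for 1 gene, again Hspa8, against 7.07% of all genes. The estimates were positive for 6 and negative for 4 of the 10 genes, with a median log2 fold change (CACS over NCACS) of 0.07, compared with -0.01 over all genes tested. The 3 HSP70 genes thus had estimates on both sides of 0, with Hspa8 at 0.58 and Hspa1b and Hspa1a at -0.56 and -0.79.

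**Figure D2:**
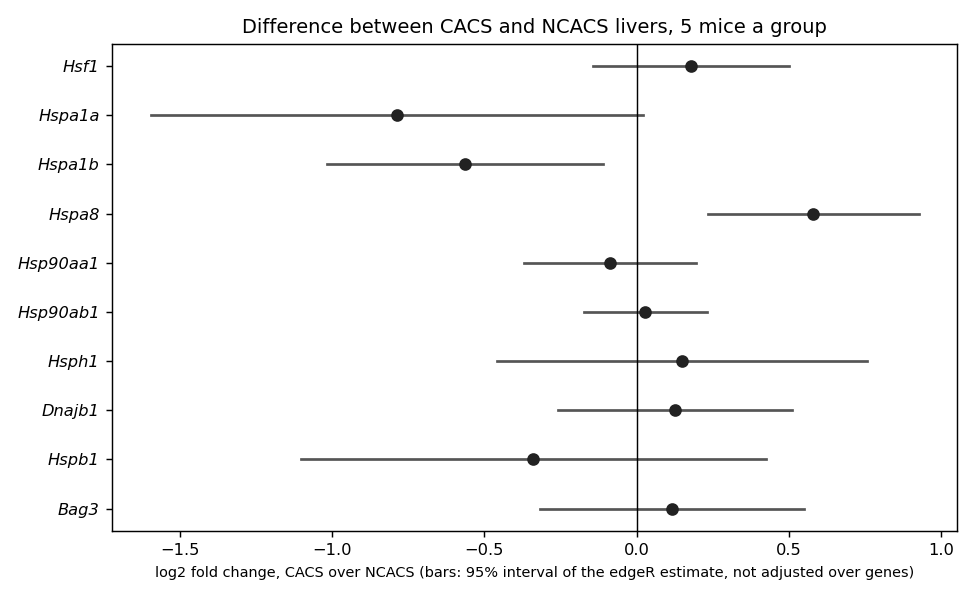
Log2 fold change of each gene, CACS over NCACS, as a point with the 95% interval of the edgeR estimate, which is not adjusted over genes (5 mice a group). The interval lies above 0 for Hspa8 (0.23 to 0.93) and below 0 for Hspa1b (-1.02 to -0.11), and it includes 0 for the other 8 genes.

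Hsf1 (ENSMUSG00000022556, chromosome 15 of GRCm38, 76477422 to 76501913, forward strand) encodes the factor that drives the response. In NCACS mice 11 to 15 its level was 18.04, 17.4, 18.01, 15.1 and 14.5 CPM, and in CACS mice 16 to 20 it was 15.4, 15.7, 16.2, 22.6 and 24.3 CPM. CACS livers 19 and 20 stood above every other liver, while CACS livers 16, 17 and 18 lay within the NCACS range. The log2 fold change was 0.18 (standard error 0.147, 95% interval -0.14 to 0.50, edgeR adjusted p = 0.516). Without CACS mouse 20 it was 0.07.

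Hspa1b (ENSMUSG00000090877, chromosome 17, 34956436 to 34959238, reverse strand) and Hspa1a (ENSMUSG00000091971, chromosome 17, 34969190 to 34972156, reverse strand) encode the strictly inducible HSP70 proteins, the textbook readout of heat shock. Hspa1b had 109 to 247 counts per liver, which gave 3.23, 6.15, 5.92, 6.71 and 6.52 CPM in NCACS mice 11 to 15 and 4.15, 2.96, 4.27, 3.35 and 4.58 CPM in CACS mice 16 to 20. NCACS livers 12 to 15 lay above all CACS livers, and NCACS liver 11 lay among the CACS values. The log2 fold change of Hspa1b was -0.56 (standard error 0.208, 95% interval -1.02 to -0.11), with an edgeR adjusted p of 0.142, a DESeq2 adjusted p of 0.0761 and a two-sided exact permutation p of 0.0476. Without NCACS mouse 11 the difference was -0.71 (edgeR adjusted p = 0.0590).

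Hspa1a was measured far less deeply, with 9 to 36 counts per liver, and counting error is a larger part of its spread. Its levels were 0.415, 0.672, 0.776, 1.08 and 1.08 CPM in NCACS mice 11 to 15 and 0.375, 0.315, 0.294, 0.451 and 0.888 CPM in CACS mice 16 to 20. CACS liver 20 had about the level of the NCACS livers, and NCACS liver 11 was again low, next to the CACS values. The log2 fold change was -0.79 (standard error 0.370, 95% interval -1.60 to 0.02, edgeR adjusted p = 0.242), and -1.15 without CACS mouse 20. Hspa1b counts were 5.16 to 14.6 times those of Hspa1a. Because the pair shares sequence, their counts were also summed, which gave 123 to 274 counts per liver and a log2 fold change of -0.59, again not past the threshold.

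Hspa8 (ENSMUSG00000015656, chromosome 9, 40800984 to 40810087, forward strand) encodes HSC70, the HSP70 protein that cells make at all times and that also uncoats clathrin vesicles and serves chaperone-mediated autophagy. Its level was 362, 447, 315, 369 and 259 CPM in NCACS mice 11 to 15 and 449, 465, 484, 596 and 629 CPM in CACS mice 16 to 20. Every CACS liver was above every NCACS liver, although NCACS liver 12 and CACS liver 16 differed by little. The means were 351 ± 69.6 and 525 ± 82.0 CPM (SD, n = 5 each), a 1.50-fold difference (95% interval 1.18 to 1.90) and a log2 fold change of 0.58 (standard error 0.159). The edgeR adjusted p was 0.0633 and that of limma-voom 0.0577, both short of the threshold, while DESeq2 gave 0.00942. A two-sided exact permutation test over all assignments of livers to groups gave p = 0.00794, the smallest it can give. When single mice were left out, the Hspa8 log2 fold change lay between 0.49 (without NCACS mouse 15) and 0.68 (without NCACS mouse 12), with edgeR adjusted p between 0.0526 and 0.135.

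**Figure D3:**
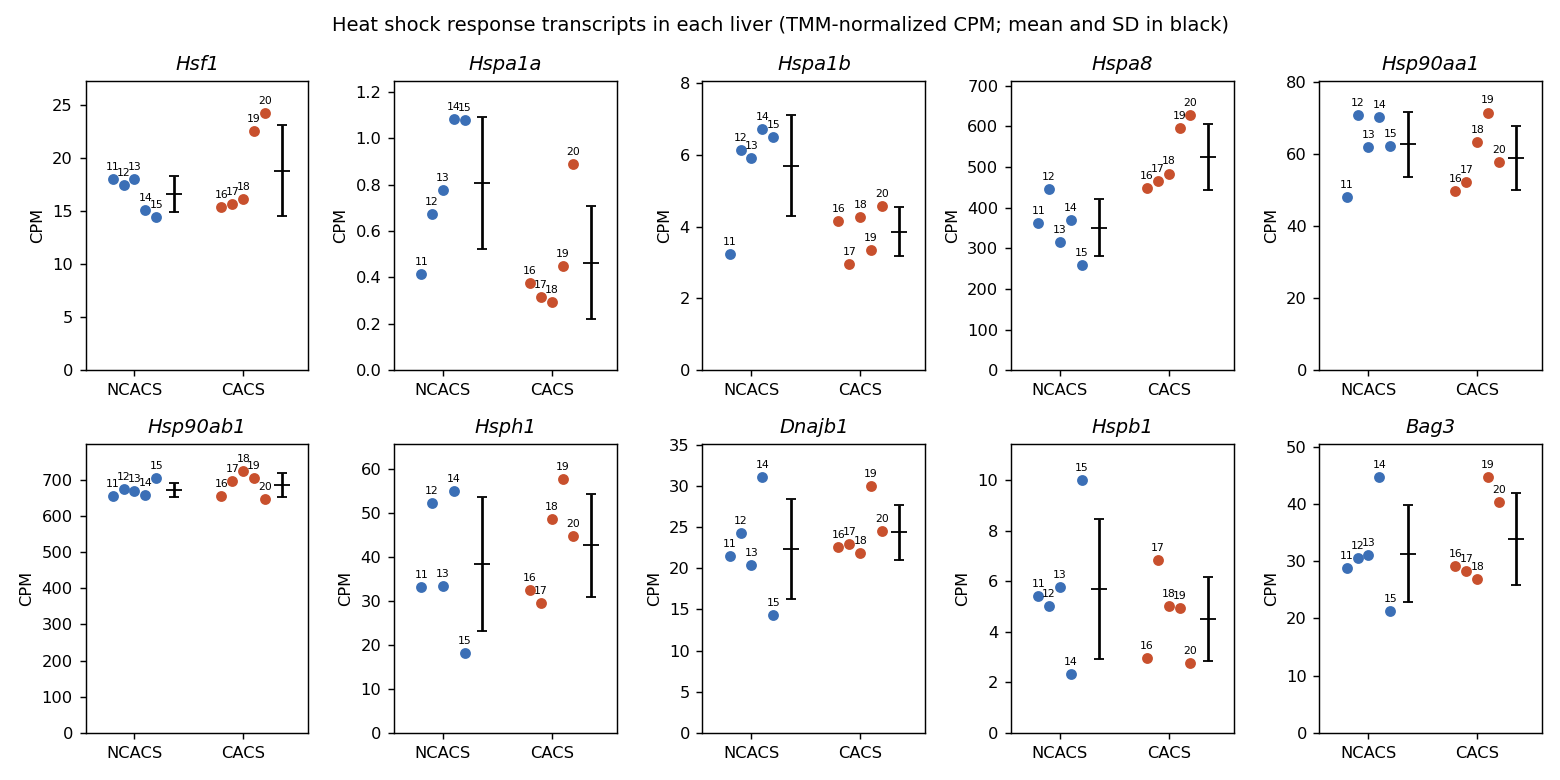
TMM-normalized level (CPM) of the 10 genes, 1 panel per gene with its own axis from 0, NCACS in blue and CACS in orange, numbered by mouse, with the group mean and SD in black (n = 5 each). The groups separate for Hspa8, all but NCACS liver 11 separate for Hspa1b, and the other panels overlap.

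The HSP90 genes showed the least difference. Hsp90ab1 (ENSMUSG00000023944, chromosome 17, 45567775 to 45573271, reverse strand), the constitutive HSP90 gene, was at 654, 673, 669, 659 and 705 CPM in NCACS mice 11 to 15 and at 655, 696, 723, 706 and 647 CPM in CACS mice 16 to 20. Its coefficient of variation was 2.97% in NCACS and 4.81% in CACS livers, and the highest liver had 1.12 times the lowest. The log2 fold change was 0.03 (95% interval -0.17 to 0.23, edgeR adjusted p = 0.893), so that the interval covers a difference of at most 1.17-fold in the upward direction. Hsp90aa1 (ENSMUSG00000021270, chromosome 12, 110690605 to 110702728, reverse strand), the inducible HSP90 gene, was at 48.2, 70.7, 61.9, 70.3 and 62.1 CPM in NCACS and at 49.7, 52.2, 63.4, 71.5 and 57.8 CPM in CACS mice, in the same order. The groups overlapped over almost their whole range, and the log2 fold change was -0.09 (95% interval -0.37 to 0.19, edgeR adjusted p = 0.744).

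Since Hsp90ab1 varied so little, it served as a reference within each liver, a choice made after the values were seen and given without a test. Hspa8 counts were 0.523 ± 0.111 of the Hsp90ab1 counts in NCACS livers (range 0.367 to 0.663) and 0.768 ± 0.136 in CACS livers (range 0.669 to 0.971, SD, n = 5 each). The ratio of raw counts does not depend on the scaling between libraries. Its ranges did not overlap, but the nearest livers, NCACS 12 and CACS 17, lay at 0.663 and 0.669. Hspa8 already separated the groups, and Hsp90ab1 was picked for varying little on the scaled counts of these livers. The separation of their ratio follows from these values and is not separate support. Hspa8 counts were 66.6 ± 28.0 times those of Hspa1b in NCACS livers and 139 ± 29.4 times in CACS livers (SD, n = 5 each). The ranges, 39.7 to 112 and 108 to 178, met only through NCACS liver 11. Since Hspa8 had a higher and Hspa1b a lower estimate in CACS livers, a larger ratio follows from those estimates and is no separate result. Both counts also carry the uncertainty of shared sequence. The ratio of Hsp90aa1 to Hsp90ab1 counts was 0.0932 ± 0.0135 in NCACS and 0.0858 ± 0.0108 in CACS livers (SD, n = 5 each).

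The co-chaperones varied more between mice of a group than between groups. Hsph1 (ENSMUSG00000029657, chromosome 5, 149614287 to 149636376, reverse strand), the HSP110 nucleotide exchange factor, was at 33.2, 52.2, 33.3, 55.0 and 18.2 CPM in NCACS and at 32.5, 29.4, 48.5, 57.7 and 44.8 CPM in CACS mice. Its highest liver had 3.17 times its lowest, and its log2 fold change of 0.15 (95% interval -0.46 to 0.76, edgeR adjusted p = 0.803) became -0.025 without NCACS mouse 15 and 0.32 without NCACS mouse 14. Dnajb1 (ENSMUSG00000005483, chromosome 8, 83608193 to 83612653, forward strand), an HSP40 J-domain protein, was at 21.5, 24.3, 20.4, 31.1 and 14.4 CPM in NCACS and at 22.6, 22.9, 21.8, 30.0 and 24.6 CPM in CACS mice. Leaving out the low NCACS mouse 15 took its log2 fold change from 0.13 (edgeR adjusted p = 0.729) to 0.01, and leaving out the high NCACS mouse 14 took it to 0.28.

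Bag3 (ENSMUSG00000030847, chromosome 7, 128523616 to 128546981, forward strand) encodes a co-chaperone that links HSP70 and small heat shock proteins to autophagy. It was at 28.8, 30.5, 31.01, 44.7 and 21.3 CPM in NCACS and at 29.1, 28.3, 26.9, 44.7 and 40.3 CPM in CACS mice. The log2 fold change of Bag3 was 0.11 (95% interval -0.32 to 0.55, edgeR adjusted p = 0.784), and it was -0.0042 without CACS mouse 19, 0.01 without NCACS mouse 15 and 0.28 without NCACS mouse 14.

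Hspb1 (ENSMUSG00000004951, chromosome 5, 135887919 to 135889563, forward strand) encodes the small heat shock protein HSP25, which holds unfolded protein without ATP. It was at 5.40, 5.03, 5.76, 2.32 and 10.01 CPM in NCACS and at 2.97, 6.82, 5.03, 4.93 and 2.78 CPM in CACS mice. This was the widest spread of the 10 genes, with a highest liver at 4.32 times the lowest, and both of these livers were in the NCACS group. The log2 fold change was -0.34 (95% interval -1.10 to 0.43, edgeR adjusted p = 0.616), ranging from -0.54 without NCACS mouse 14 to -0.04 without NCACS mouse 15.

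Several of the genes moved together from mouse to mouse within a group. How often other genes did so in the same livers was not counted, so this is not shown to be particular to these genes. Relative to the mean of its own group, CACS liver 19 was above the mean for 9 of 10 genes and CACS liver 20 for 7, while CACS liver 16 was above it for 1. In the NCACS group, liver 14 was the highest for 5 genes and liver 15 the lowest for 5, namely Hsf1, Hspa8, Hsph1, Dnajb1 and Bag3. Hspb1 went the other way in these livers, lowest in liver 14 and highest in liver 15. Liver 15 was above its group mean for 5 of the 10 genes. Among them were also Hspa1a (by 0.47 in log2 CPM), Hspa1b (0.24) and Hsp90ab1 (0.07).

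**Figure D4:**
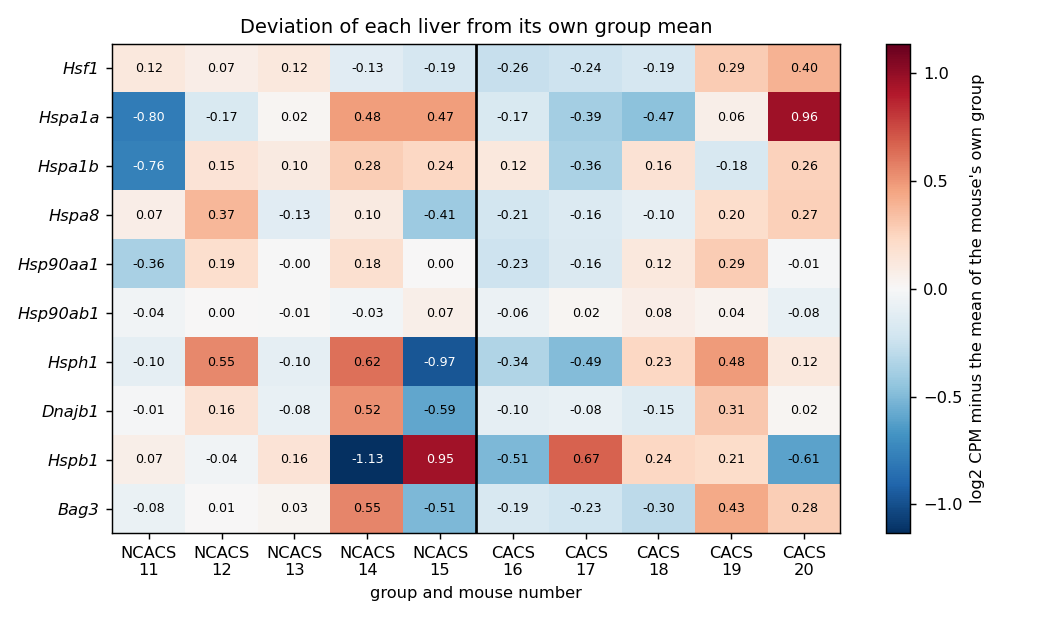
Log2 CPM of each gene in each liver minus the mean of that mouse's own group, printed in each cell and coloured from blue (below) to red (above), with a line between the groups. CACS liver 19 is above its group mean for 9 genes, and NCACS livers 14 and 15 differ in opposite directions for Hsph1, Dnajb1, Bag3 and Hspb1.

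Over the 10 livers with group means removed, the correlation of each gene with the mean profile of the 10 genes was highest for Hsp90aa1 (Pearson r = 0.885), followed by Hsph1 (0.788), Bag3 (0.764), Hspa8 (0.720), Dnajb1 (0.659) and Hsf1 (0.599). Hspa1a had r = 0.502, Hspa1b 0.405, Hsp90ab1 0.07 and Hspb1 -0.36. Each gene is part of that mean and all values share library depth, so these are descriptions over 10 livers. Among 9204 genes with a mean of at least 5 CPM, those most like the mean profile over the 10 livers were Mgat2 (r = 0.963), Top1 (0.951), Chordc1 (0.941), Dnajc9 (0.937) and Riox1 (0.937). Chordc1, an HSP90 co-chaperone, was itself on the list of further chaperone genes, and its log2 fold change between groups was 0.08 (edgeR adjusted p = 0.772).

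NCACS mouse 15, without which the estimates of Hsph1, Dnajb1, Hspb1 and Bag3 came close to 0, also stood apart in clock genes, which cycle over the day. Its level of Dbp, a clock output gene, was 1.27 CPM, while the other NCACS livers had 52.1 to 82.9 CPM and the CACS livers 18.8 to 58.8 CPM. Its level of Per3 was 2.50 CPM against at least 36.5 CPM in every other liver. The weight change of NCACS mouse 15 was -14%, the largest loss in its group. Leaving out CACS mouse 19 instead also brought Hsph1 (0.02), Dnajb1 (0.04) and Bag3 (-0.0042) close to 0, but not Hspb1 (-0.37). That liver had 58.8 CPM of Dbp and 68.1 CPM of Per3. The part of time of day in the heat shock values was not tested.

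A wider set of cytosolic chaperone genes was compared in the same livers. Of 69 genes listed as HSF family, further HSP70, HSP110 and HSP40 genes, HSP90 and HSP70 co-chaperones, small heat shock proteins, TRiC subunits and other HSF1-induced genes, 64 were tested. Of these, 40 had a higher and 24 a lower level with cachexia (median log2 fold change 0.05). At an unadjusted p below 0.05 there were 13 of the 64, against 21.6% of all genes. The threshold was passed by 1 of the 64, against 3.80% of all genes. It was Fkbp5, an immunophilin co-chaperone of HSP90 and a well known glucocorticoid-induced gene, at 35.1, 53.6, 38.2, 13.4 and 12.3 CPM in NCACS and 227, 33.0, 161, 141 and 175 CPM in CACS mice. Its log2 fold change was 2.27 (standard error 0.511, edgeR adjusted p = 0.0359), and CACS mouse 17 alone among the CACS livers lay within the NCACS range. The call held when either of 2 mice was left out (without NCACS mouse 12 and without CACS mouse 17), and was lost without any of the other 8, where the edgeR adjusted p reached 0.0769.

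DESeq2 called 6 of these genes, which were Fkbp5, Hspa2, Hspa4l, Dnajb6, Cct2 and Hsbp1l1, against 10% of all genes with an adjusted p. The groups did not overlap for 3 of the 64, against 7.07% of all genes. These shares of all genes are also the background for the counts of each list below. Among the HSP70 and HSP110 relatives, Hspa4l, an HSP110 gene, was lower at 8.30 to 10.3 CPM in CACS against 11.9 to 19.6 CPM in NCACS livers (log2 fold change -0.57, edgeR adjusted p = 0.0504), with no overlap. Hspa2, an HSP70 gene known for its role in the testis, had a log2 fold change of 1.54 (edgeR adjusted p = 0.0561, DESeq2 adjusted p = 0.00287). Dnajb6, an HSP40 gene, was at 14.8 to 21.2 CPM in CACS and at 12.5 to 14.4 CPM in NCACS livers (log2 fold change 0.40, edgeR adjusted p = 0.0533). All 8 TRiC subunits, which form the chaperonin that folds actin and tubulin, had positive estimates, with a median of 0.11, also with RLE factors and with raw library totals, and 0 of 8 were called by edgeR (1 at an unadjusted p below 0.05, and 1 by DESeq2). Cct2 was the subunit with the smallest p, at 110 to 113 CPM in CACS against 82.6 to 107 CPM in NCACS livers (log2 fold change 0.27, edgeR adjusted p = 0.0927).

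The remaining lists gave 0 calls by edgeR and no DESeq2 call beyond those named above, with 2 of 5 HSF family genes, 2 of 7 HSP70 co-chaperones, 1 of 6 small heat shock protein genes and 3 of 18 other HSF1-induced genes at an unadjusted p below 0.05. The genes of smallest p in them were Hsbp1l1, a relative of the HSF1 inhibitor HSBP1 (log2 fold change -0.64, edgeR adjusted p = 0.115), Bag5 among the HSP70 co-chaperones (0.33, edgeR adjusted p = 0.103) and the small heat shock protein gene Cryab (-0.59, edgeR adjusted p = 0.132). Of the 18 other HSF1-induced genes, some of which are also on the lists above, 10 were higher and 8 lower, with a median log2 fold change of 0.01.

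Chaperones of other compartments were placed beside the cytosolic genes. Of 10 mitochondrial chaperones 6 were higher and 4 lower (median log2 fold change 0.03), and Dnaja3, a mitochondrial HSP40 gene, had the smallest p (0.21, edgeR adjusted p = 0.257), with 0 at an unadjusted p below 0.05 and 0 by DESeq2. Of 14 chaperones of the endoplasmic reticulum, 1 was higher and 13 were lower in the CACS group, and their median was -0.21. None was called by edgeR (0 of 14), 5 had an unadjusted p below 0.05, all lower, and DESeq2 called 2, Pdia3 and Pdia4. One liver stood apart on this list, since NCACS liver 13 was the highest of all livers for 11 of the 14 genes. Without it, an alternative added after the data had been seen, 6 were higher and 8 lower, the median was -0.08, and 0 were called by edgeR with 2 at an unadjusted p below 0.05. With all 10 livers, the smallest p on this list was that of Pdia4, a protein disulphide isomerase, at 142 to 188 CPM in CACS and 181 to 369 CPM in NCACS livers (log2 fold change -0.55, edgeR adjusted p = 0.101). No test of the difference between these lists and the 10 genes was made.

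**Figure D5:**
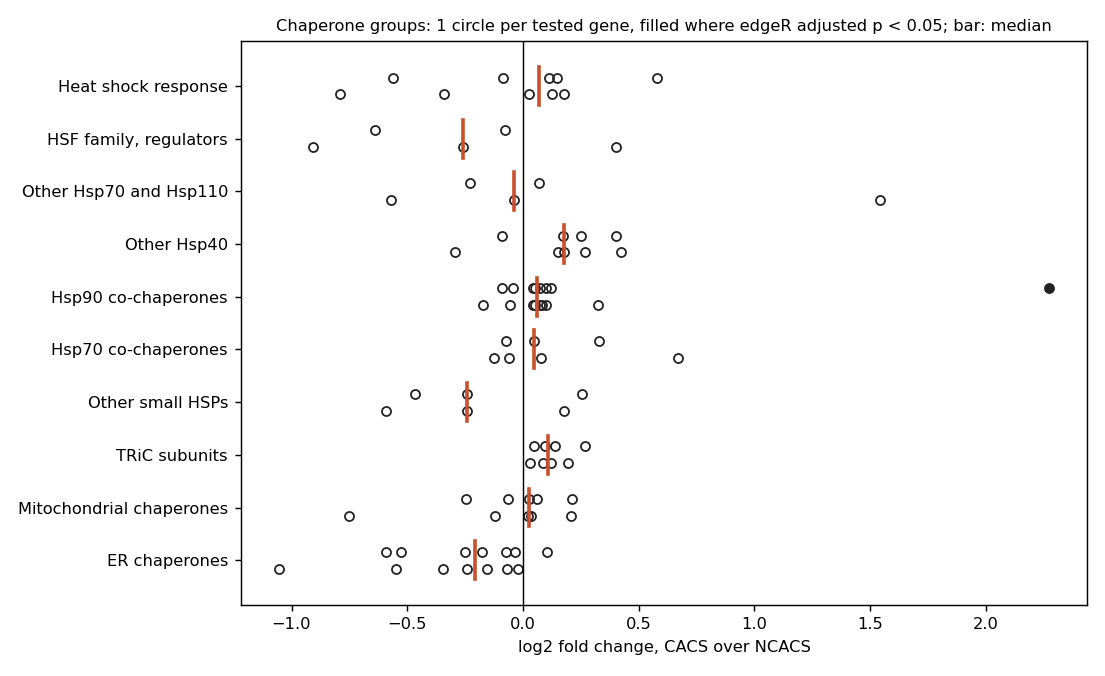
Log2 fold change, CACS over NCACS, of every tested gene of the heat shock response set and of each list of other chaperones, with 1 circle per gene, filled where the edgeR adjusted p passed the threshold, and an orange bar at the median. The only filled circle is Fkbp5 at 2.27, and the median of the endoplasmic reticulum chaperones is -0.21, or -0.08 without NCACS liver 13.

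Immediate early genes, which answer acute stress and the handling of tissue within a short time, were read in the same livers, and their part in the heat shock values was not tested. Of 11 immediate early genes tested, 9 had a higher and 2 a lower level in CACS livers, 4 had an unadjusted p below 0.05, all higher, and 2 passed the threshold. DESeq2 called 4, which were Jun, Dusp1, Atf3 and Nr4a1. Jun, a subunit of AP-1, was at 4.33 to 7.31 CPM in NCACS and 7.08 to 21.1 CPM in CACS livers (log2 fold change 1.22, edgeR adjusted p = 0.0374). Dusp1, a phosphatase of MAP kinases that glucocorticoids also induce, was at 8.79 to 17.1 and 18.3 to 82.9 CPM (log2 fold change 1.89, edgeR adjusted p = 0.0374). With each mouse left out, Jun passed in 4 of 10 fits (without NCACS mouse 13 or CACS mouse 17, 18 or 20) and Dusp1 in 2 of 10 (without CACS mouse 18 or 19). Clock genes were higher for 6 and lower for 8 of 14, with 0 called by edgeR (5 at an unadjusted p below 0.05, and 2 by DESeq2) and Nr1d1 of smallest p (log2 fold change -1.65, edgeR adjusted p = 0.0930).

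A whole liver holds several cell types, and in bulk RNA fewer cells of a type and less RNA per cell cannot be told apart. Hepatocyte markers summed to 65479 to 115236 CPM in NCACS and 108788 to 132253 CPM in CACS livers, with 6 of 7 higher and Hnf4a called (edgeR adjusted p = 0.0435). Most of this sum was Alb, at means of 68587 and 92841 CPM, which was not called (edgeR adjusted p = 0.290). DESeq2 called 1 of the 7 hepatocyte markers, and 2 had an unadjusted p below 0.05. All 7 Kupffer cell markers were lower in CACS livers, with sums of 101 to 204 against 170 to 285 CPM and Cd5l called (edgeR adjusted p = 0.0374). DESeq2 called 3 of them, and 4 had an unadjusted p below 0.05. Hnf4a passed in 1 and Cd5l in 2 of the 10 fits with a mouse left out. All 4 lymphocyte and all 3 neutrophil markers tested were lower and none was called by edgeR (DESeq2 called 1 and 2, and 3 of each had an unadjusted p below 0.05), with sums of 5.51 to 11.4 against 8.16 to 17.9 CPM and of 2.12 to 5.82 against 3.91 to 18.5 CPM. Endothelial, stellate, cholangiocyte and erythroid markers had 0 calls by edgeR and by DESeq2 (3 at an unadjusted p below 0.05), and no marker on these lists was at 0 in every liver. The part of cell composition in the heat shock values was not tested.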

How the data were processed

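Liver RNA of 10 KL mice was made into stranded mRNA libraries and sequenced from 1 end. The authors aligned the reads to GRCm38 with STAR 2.4.1d in 2-pass mode, counted them per Ensembl gene with HTSeq 0.6.1 and deposited the raw counts without normalization. The annotation release, the strand setting and the treatment of reads with several alignments are not given in the sources used here. Groups, mouse numbers and weight changes came from the sample labels, and the labels name no batch. Symbols, coordinates and exon lengths were those of GENCODE M21, also on GRCm38, and promoters from RefSeq.

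Counts were filtered with filterByExpr, TMM-scaled and fitted with edgeR 4.0.16 in R 4.3.3 (quasi-likelihood test, 14143 genes), with Benjamini-Hochberg adjusted p under 0.05 as the threshold. The standard error of a log2 fold change was its size divided by the square root of F. CPM are relative to the effective library size, log2 CPM used a prior count of 2, and RPKM divided CPM by the length of the union of a gene's exons. The exact permutation tests used the difference of mean log2 CPM. Shared sequence was read in 100-base windows of 1 transcript per gene.

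Alternatives were DESeq2 1.42.0, limma-voom (limma 3.58.1), factors by RLE, library totals as they stood, omission of the filter, a minimum of 10 counts per liver, summed Hspa1a and Hspa1b counts, and each mouse left out. The list of endoplasmic reticulum chaperones without NCACS mouse 13 was added after the data had been seen. Scripts were tested on simulated data. Livers of a group were not repeats of 1 library (chi-square per degree of freedom of at least 50.1 for every pair).

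The 10 genes and all gene lists were chosen with earlier results of these data known. The genes named from other chaperone, immediate early and clock lists were those past the threshold or, where a list had none, the gene of smallest p. The 5 genes most like the mean profile were ranked by Pearson r. Those called by DESeq2 only, the cell type markers, Dbp, Per3 and the ratios of counts were picked with their values in view. The study's larger set of livers and its batch correction were not analysed here. The full genotype of the mice is not reported here.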

Additional observations from a re-analysis of the deposited data

Results flagged for a closer look

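Hspa1b in NCACS mouse 11 was far from the other NCACS livers. On the log2 CPM scale its gap to the nearest liver was 0.827 of the range of the group, above the critical value of 0.71 of Dixon's test for 5 samples. The liver had 3.23 CPM, and the other 4 NCACS livers had between 5.92 and 6.71 CPM. Chance passes that critical value in about 1 of 20 groups, and a value as high as 0.827 is rarer. Of 22 combinations of a quantity and a group that were examined, 1 passed. The difference of Hspa1b between CACS and NCACS livers was -0.71 on the log2 scale without this mouse and -0.56 with it. Hspa1a, which shares much of its sequence, was also lowest of its group in this liver, with 14 counts.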

How the results depend on the processing

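No paired analysis was possible because no mouse number occurs in both groups. Under the alternatives, 165 values of single heat shock genes kept their direction and their side of the threshold. Hspa8 passed the threshold with DESeq2 (log2 fold change 0.57, DESeq2 adjusted p = 0.00942) and in no other alternative. Hsph1 reversed to -0.025 without NCACS mouse 15 and otherwise reached 0.32 with a mouse left out. Bag3 reversed to -0.0042 without CACS mouse 19 and otherwise reached 0.28. DESeq2 called 1 of the 10 genes and every other alternative, including all 10 fits with a mouse left out, called 0. Of all genes, 538 were called by edgeR and 1386 by DESeq2, and between 178 (without NCACS mouse 11) and 519 (without CACS mouse 17) with a mouse left out. Of the 64 other cytosolic chaperone genes, edgeR called 1, DESeq2 6, and RLE factors, raw library totals and the minimum of 10 counts each 2. With a mouse left out this count was 0 to 3. Of all genes tested, RLE factors called 538 of 14143, raw library totals 406 of 14143 and the minimum of 10 counts 532 of 12702. The median log2 fold change over the 10 genes was 0.07, and between -0.01 (without NCACS mouse 15) and 0.10 with a mouse left out. The minimum of 10 counts removed Hspa1a, so it gave no value there. Beyond the smaller number of mice in the fits that leave one out, the cause of these shifts was not tested. Depth limited Hspa1a most, with at most 36 counts in a liver.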
